A study of Arabidopsis thaliana with 24 samples.

Results

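Phytochrome-interacting factors (PIFs) are basic helix-loop-helix (bHLH) transcription factors that bind DNA in the dark or in shade and are turned over when light activates the phytochrome photoreceptors. The steady-state levels of 10 transcripts of this pathway were followed here, chosen by their locus identifiers from the 32833 genes of the table. They encode the factors PIF1 (AT2G20180), PIF3 (AT1G09530), PIF4 (AT2G43010) and PIF5 (AT3G59060), the related bHLH proteins HFR1 (AT1G02340) and PIL1 (AT2G46970), the helix-loop-helix protein PAR1 (AT2G42870), the brassinosteroid-induced bHLH factor BEE1 (AT1G18400), and the class II homeodomain-leucine zipper (HD-Zip II) factors ATHB2 (AT4G16780) and ATHB4 (AT2G44910). Of the 10, 8 passed the filter on low values (3 or more libraries at a normalized count of 10 or more), while PIL1 and ATHB4 reached 10 in 0 libraries and were not tested.

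RNA was sequenced from leaves of wild-type *Arabidopsis thaliana* (accession Col), 4 to 5 weeks old, grown at 23 °C under 8 h of light and 16 h of darkness at 50 µmol m−2 s−1. All plants carried a drop of 0.3% agarose for 15 min between a local and a systemic leaf, which held water or 50 mM diphenyleneiodonium (DPI, an inhibitor of flavin enzymes including the NADPH oxidases that produce reactive oxygen species). The local leaf was then exposed to high light of 2000 µmol m−2 s−1 for 8 min or left as a control, and the local leaf and the systemic leaf, which received no high light, were sampled. The study describes sampling at the start of the light stress and 8 min later. By this account, controls were sampled sooner after the drop was placed. High light and this added time cannot be told apart in the light responses and their interactions. The 24 libraries thus form 8 groups of 3: water control local, water high light local, water control systemic, water high light systemic, and the same 4 under DPI. Each replicate pooled leaves of many plants, so that the spread shown is between pools.

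PIF4 and PIF5 promote cell elongation and are held back by phytochrome B in open light, PIF1 restrains germination and greening in seedlings, and PIF3 keeps dark-grown seedlings etiolated. HFR1, PIL1 and PAR1 are shade-induced brakes: HFR1 and PAR1 form dimers with PIFs that do not bind their targets, and ATHB2 is a classical early shade-induced factor that promotes elongation. PIFs recognise the G-box and the PBE-box, short motifs in the promoters of their target genes.

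Sequence upstream of the 10 genes was read from the RefSeq TAIR10.1 genome and annotation, since the table itself holds no coordinates, and searched on both strands for the G-box CACGTG and the PBE-box CACATG, which no hexamer can match together. Within 300 bases before the annotated gene start, 2 of the 10 genes held a G-box, PIF5 at 165 bases and BEE1 at 136 bases before the start, against 7.09% of 27437 protein-coding genes. No gene of the 10 held a PBE-box there, against 13.1% of all promoters. Within 1000 bases, 4 of 10 held a G-box and 4 of 10 a PBE-box, against 14.8% and 37.7%. The upstream bases of PIF5 and BEE1, which were both lower under DPI without high light, are shown for the G-box, in capitals. PIF3, also lower under DPI in both leaves, held neither motif within 1000 bases. The PIF5 bases are chr3:21830838-21831137 on the minus strand and the BEE1 bases chr1:6331098-6331397 on the plus strand.
PIF5: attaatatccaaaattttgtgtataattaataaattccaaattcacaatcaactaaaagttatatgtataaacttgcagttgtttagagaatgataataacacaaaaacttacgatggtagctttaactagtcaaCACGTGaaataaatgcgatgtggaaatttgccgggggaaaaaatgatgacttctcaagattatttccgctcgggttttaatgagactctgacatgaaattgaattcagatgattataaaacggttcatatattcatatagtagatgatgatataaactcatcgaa
BEE1: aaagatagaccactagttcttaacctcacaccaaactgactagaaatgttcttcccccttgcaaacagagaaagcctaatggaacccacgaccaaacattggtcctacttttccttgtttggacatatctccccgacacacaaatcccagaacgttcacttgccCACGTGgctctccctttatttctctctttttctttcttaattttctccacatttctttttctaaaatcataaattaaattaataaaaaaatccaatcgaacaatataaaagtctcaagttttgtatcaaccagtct

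PAR1, the tested transcript with the largest response to high light among the 8, held 1 G-box and 4 PBE-boxes between 937 and 731 bases before its gene start. At least 4 PBE-boxes within 1000 bases occurred in 0.554% of 27434 promoters, and at least 4 together with a G-box in 0.0948%. These cuts are what PAR1 itself held, so the shares do not measure how unusual PAR1 is. The stretch is chr2:17838319-17838568 on the minus strand, 950 to 701 bases before the start, and overlaps the long noncoding RNA gene AT2G09405 on the same strand. It was chosen after the matches were seen, and capitals mark both motifs (CATGTG is the PBE-box read on the other strand).
PAR1: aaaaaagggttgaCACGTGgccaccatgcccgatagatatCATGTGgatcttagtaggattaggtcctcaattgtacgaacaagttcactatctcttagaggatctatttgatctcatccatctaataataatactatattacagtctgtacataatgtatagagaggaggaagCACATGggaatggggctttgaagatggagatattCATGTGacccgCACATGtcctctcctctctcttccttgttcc
A match to a motif is a description of these letters, and binding was not measured in these data.

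Total reads per library ranged from 13492454 to 26913744 with a median of 17764651.5, and 3 reads, the least taken as detected, correspond to 2.00 to 4.27 normalized counts (counting error only). The 5 leaf mesophyll markers, Rubisco and antenna genes among them, summed to between 673166 and 791007 normalized counts over all libraries. Local controls ran from 711201 to 791007 under water and from 674991 to 698417 under DPI. There 2 of 5 markers were lower under DPI and 0 higher. After high light the DPI local leaf ran from 714985 to 735245, with 3 of 5 higher. Under water, high light gave 747736 to 770403 in that leaf, within the control range, with 1 higher and 2 lower. Systemic controls had 2 higher and 1 lower under DPI. The 3 root markers summed to 95.4 to 219 normalized counts over all libraries, with RHD6 at 0 in every library and the other two, PYK10 and SHR, tested. Both were lower in the DPI local light response, where their sum ran from 174 to 215 in controls and from 95.4 to 128 after high light, and PYK10 was higher in the systemic light response under water and under DPI without high light in both leaves. The part of mesophyll and root markers in the results was not tested. In these bulk leaf samples, fewer cells of a type and less RNA per cell cannot be told apart.

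Per kilobase of transcript, the most abundant of the 10 in the water control local leaf were PIF5, at 1747 ± 27.4 normalized counts per kb (SD, n = 3), and PIF4, at 1672 ± 39.2, whose libraries overlapped. HFR1 followed at 718 ± 52.1, PIF1 at 313 ± 9.01, ATHB2 at 259 ± 32.2 and PIF3 at 69.1 ± 8.02. PAR1 (27.8 ± 9.50) and BEE1 (20.1 ± 4.34) overlapped, as did ATHB4 (3.30 ± 0.351) and PIL1 (2.81 ± 0.278) at the bottom of this order. The levels per gene, not divided by length, are plotted for every library. The most variable tested transcript was PAR1, whose group means ran from 12.4 ± 6.07 in the water high light local leaf to 77.0 ± 8.33 in the DPI high light systemic leaf, a 6.20-fold range, against 1.18-fold for PIF5.

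**Figure D1:**
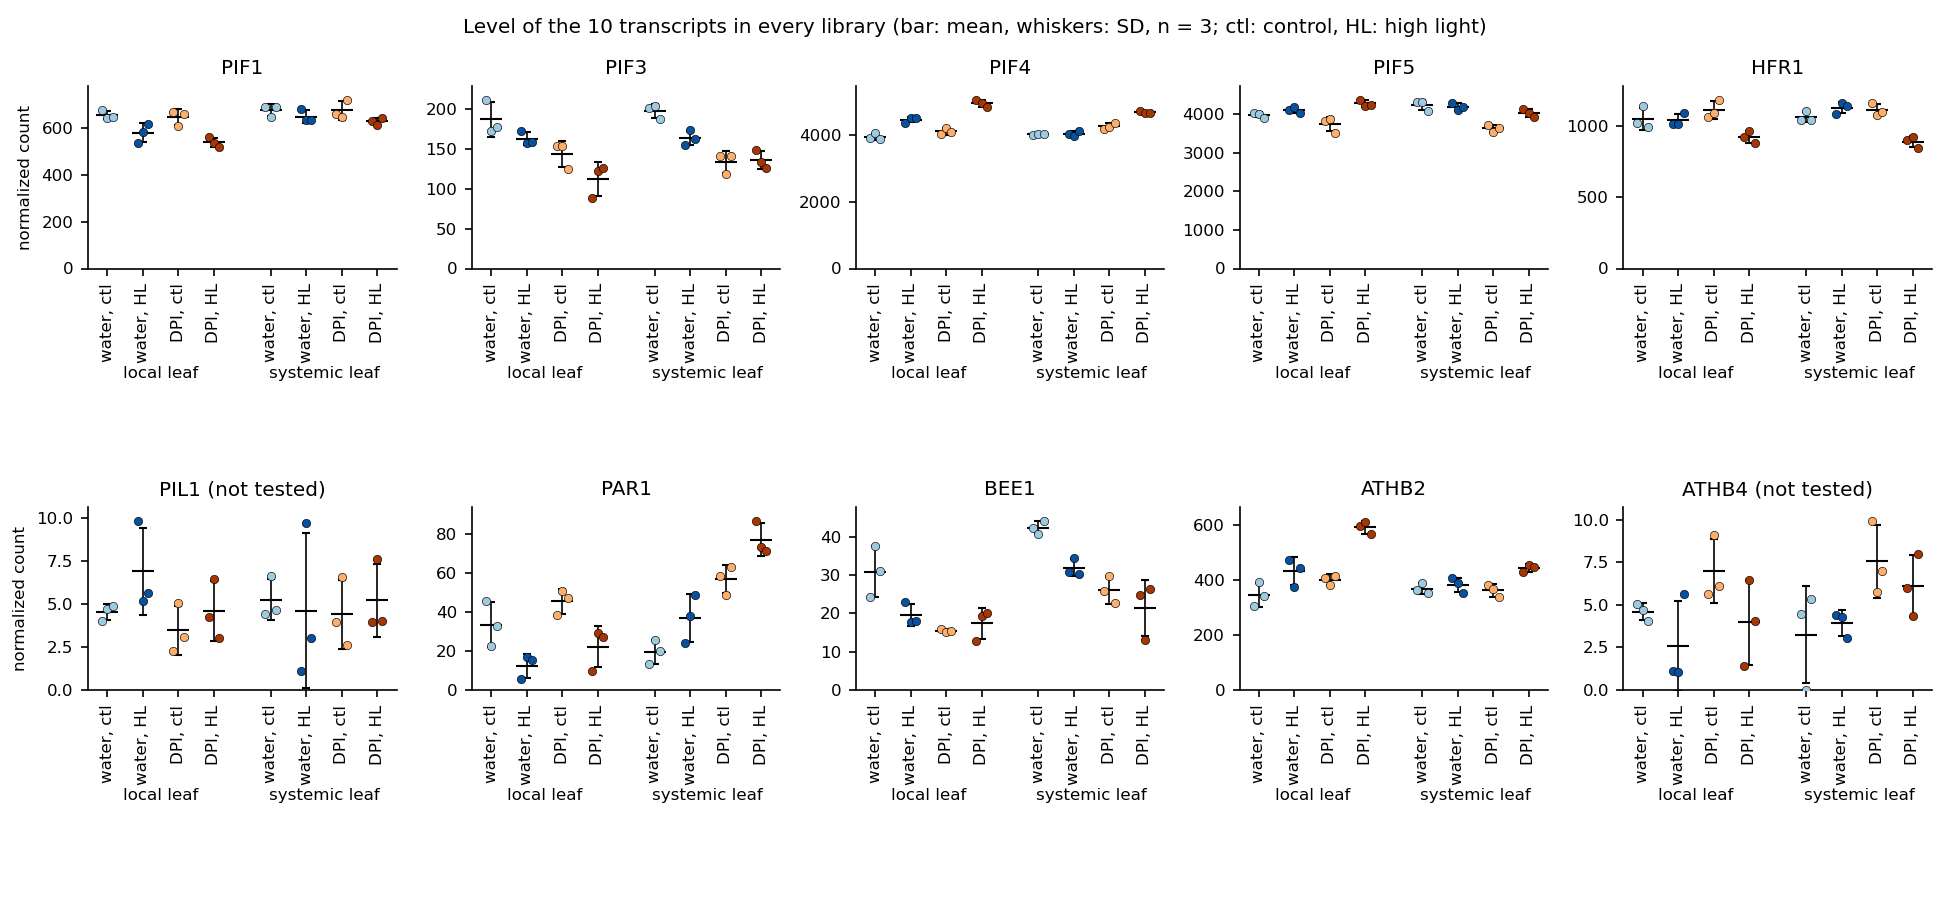
Normalized count of each transcript (y axis, from 0, scaled per panel) in every library of the 8 groups (x axis), with the group mean as a bar and the SD as whiskers, n = 3. PIF4 stands highest in the DPI high light local leaf, where its libraries reached 5043.0, and PAR1 lowest in the water high light local leaf, down to 5.5.

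The first question was how the transcripts responded to 8 min of high light in the leaf that received it. Under water, PIF4 and ATHB2 rose while PIF1 and PAR1 fell in the local leaf, that is 4 of 8 tested transcripts against 32.3% of the 18314 tested genes, 17.9% higher and 14.4% lower (limma, Benjamini-Hochberg adjusted p under 0.05). Under DPI, 7 of 8 changed in the local leaf: PIF4, PIF5 and ATHB2 rose, and PIF1, PIF3, HFR1 and PAR1 fell, with a background of 33.8% (17.9% higher, 15.9% lower). The transcripts thus split by direction, and on the log2 scale the median change of the 8 was −0.09 with water and −0.06 with DPI, beside 0.00 over all genes in both.

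Among the factors that promote elongation, PIF4 stood at 3886.6, 4031.2 and 3860.1 normalized counts in the water control local leaf and at 4357.2, 4483.4 and 4492.1 after high light. Every library after high light was above every control library. The rise was 0.18 ± 0.032 on the log2(normalized count + 1) scale (SE, adjusted p = 1.72e-05), or 13.2%. Under DPI, PIF4 went from 4005.0, 4205.9 and 4065.3 to 5043.0, 4934.3 and 4815.7, again without overlap, a rise of 0.27 ± 0.032 (adjusted p = 4.75e-09) or 20.5%. These rises are small and depended on the scaling: after quantile normalization they were 0.04 (adjusted p = 0.363) and 0.06 (adjusted p = 0.167). The 537 tested transcripts with a mean of 3000 to 6000 normalized counts, the range of PIF4 and PIF5, had a median change of 0.02 under water and 0.07 under DPI without quantile normalization.

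PIF5, the closest relative of PIF4 in this set, was at 4035.7, 4008.7 and 3916.3 in the water control local leaf and at 4123.3, 4195.2 and 4032.5 after high light, and these libraries overlapped. The difference of 0.05 ± 0.036 did not pass the test (adjusted p = 0.355), and 2 SE on each side spanned −0.03 to 0.12. Under DPI the local leaf went from 3840.7, 3875.2 and 3527.4 to 4385.4, 4220.5 and 4254.0, without overlap, a rise of 0.19 ± 0.036 (adjusted p = 2.85e-05). Quantile normalization turned the sign of both, to −0.09 (adjusted p = 0.0497) under water and −0.02 (adjusted p = 0.637) under DPI.

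ATHB2, the early shade-induced HD-Zip factor, was at 305.3, 390.6 and 340.5 in the water control local leaf and at 473.3, 374.7 and 444.5 after high light. The groups overlapped at replicate 2 of each, and the rise was 0.32 ± 0.079 (adjusted p = 0.00147). With DPI the increase was plainer by library: 407.9, 379.3 and 415.4 in controls against 593.5, 611.5 and 565.7 after high light, without overlap. That rise, 0.56 ± 0.079 (adjusted p = 2.57e-07) or 47.2%, was the largest increase among the 8 in any light response that passed the test, and it passed in every alternative run. ATHB4, of the same class, held 0 to 10 reads per library and was below 3 reads in 4 libraries, with levels from 0 to 9.9 normalized counts.

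PIF1, the factor that restrains germination, was at 675.1, 639.5 and 646.9 in the water control local leaf and at 535.6, 581.8 and 616.6 after high light. All lit libraries lay below the controls, with a fall of −0.18 ± 0.057 (adjusted p = 0.0135). Without control replicate 1 the value was −0.16 (adjusted p = 0.0667), and without high light replicate 1 it was −0.13 (adjusted p = 0.132). Under DPI it went from 667.3, 605.5 and 659.3 to 559.4, 534.0 and 518.2, a change of −0.26 ± 0.057 (adjusted p = 0.000359) without overlap, and this call held in every alternative.

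PIF3, which keeps dark-grown seedlings etiolated, was at 152.9, 153.1 and 124.5 in the DPI control local leaf and at 88.2, 121.7 and 126.3 after high light. The groups overlapped, and the change of −0.37 ± 0.119 (adjusted p = 0.015) was lost without DPI high light local replicate 1 (−0.20, adjusted p = 0.208) and without DPI control local replicate 1 (−0.32, adjusted p = 0.0712) or replicate 2 (−0.32, adjusted p = 0.0744). DESeq2 gave −0.34 (adjusted p = 0.0745), and a fit of only the groups compared −0.37 (adjusted p = 0.0564). Under water its value was −0.19 ± 0.119 (adjusted p = 0.227).

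Of the brakes on PIF activity, PAR1 showed the largest fall. In the water local leaf it went from 45.3, 22.5 and 32.6 normalized counts to 5.5, 16.7 and 15.1 after high light, without overlap, which is −1.44 ± 0.329 (adjusted p = 0.00058), so that it fell by 63.1%. Under DPI it went from 38.5, 50.7 and 47.0 to 9.96, 29.1 and 27.3, also without overlap, or −1.13 ± 0.329 (adjusted p = 0.00629). The call under DPI rested on high light replicate 1, without which the value was −0.66 (adjusted p = 0.127), whereas the call under water held in every alternative that tested it. PAR1 had 5 to 89 reads per library, so its values carry a large counting error.

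HFR1, which sequesters PIFs in inactive dimers, was at 1021.8, 1140.0 and 997.2 in the water control local leaf and at 1019.9, 1019.9 and 1097.0 after high light. These overlapped, at −0.01 ± 0.053 (adjusted p = 0.928, 2 SE from −0.11 to 0.10). Under DPI HFR1 went from 1067.2, 1094.3 and 1189.1 to 923.8, 966.8 and 883.9, without overlap, a fall of −0.27 ± 0.053 (adjusted p = 6.55e-05). PIL1, a related bHLH protein, was at 1 to 9 reads in every library (1.1 to 9.8 normalized counts) and below 3 reads in 2. Without a filter on low values, neither PIL1 nor ATHB4 passed the adjusted threshold in any of the 12 comparisons, by limma (lowest adjusted p 0.426 and 0.0646) or by DESeq2 (0.612 and 0.240), and unadjusted p was under 0.05 in 0 comparisons for PIL1 and 1 for ATHB4 by limma, and in 0 for both by DESeq2.

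BEE1, a brassinosteroid-induced bHLH factor, was at 24.2, 37.6 and 31.0 in the water control local leaf and at 23.0, 17.7 and 17.97 after high light. The libraries did not overlap, but −0.62 ± 0.254 did not pass the test (adjusted p = 0.0569). It passed by edgeR (−0.67, adjusted p = 0.0363), with a pseudocount of 5 (−0.54, adjusted p = 0.0447), after quantile normalization (−0.69, adjusted p = 0.0233), without water control local replicate 1 (−0.78, adjusted p = 0.0329) and without water high light local replicate 1 (−0.74, adjusted p = 0.0463). Under DPI the light response was 0.14 ± 0.254 (adjusted p = 0.722).

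Markers of other leaf cell types also moved with high light in the local leaf. Summed over FAMA, MYB60 and EPF1, guard cell markers ran from 494 to 609 normalized counts in the water control local leaf and from 379 to 439 after high light, with 2 of 3 lower. Under DPI the same sum ran from 486 to 518 and from 362 to 405. The 3 phloem markers summed to 4214 to 4650 in the water control local leaf and 5707 to 6096 after high light, with 2 of 3 higher, and to 5246 to 5583 and 6293 to 6845 under DPI. In the systemic leaves guard cell markers ran from 541 to 553 and 548 to 562 under water (control and high light) and from 505 to 542 and 490 to 530 under DPI. Phloem markers there ran from 4987 to 5323 and 4018 to 4666 under water and from 5090 to 5337 and 5322 to 5426 under DPI. The part of these cell types in the responses above was not tested.

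**Figure D2:**
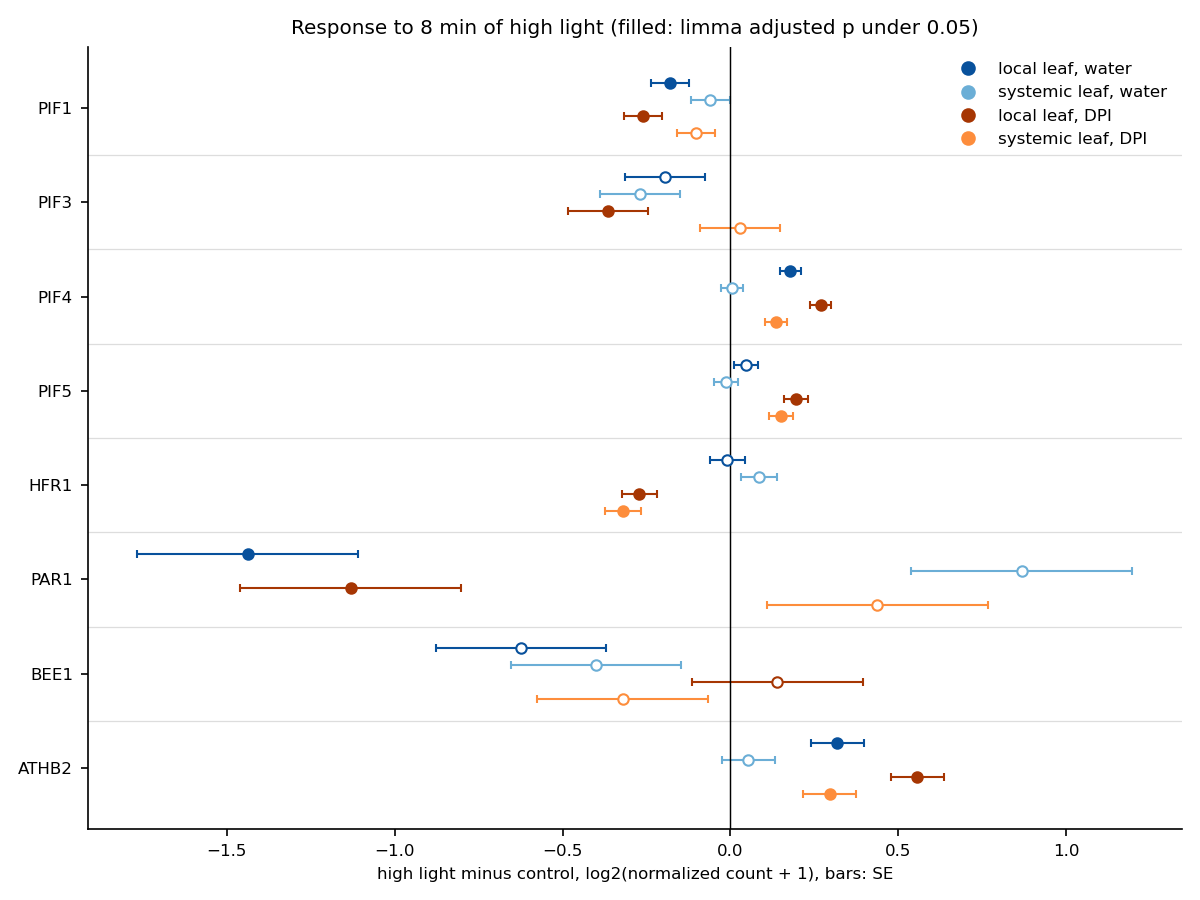
High light minus control for the 8 tested transcripts, as log2(normalized count + 1) on the x axis with SE bars, for the local and systemic leaf under water and DPI; filled points passed the test. PAR1 lies far to the left in both local leaves (−1.44 and −1.13), and no systemic point under water is filled.

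The second question was whether the systemic leaf, which received no high light itself, responded. Under water 0 of 8 transcripts passed by limma, where 10.8% of all genes did (7.66% higher, 3.1% lower). By edgeR 1 passed and by DESeq2 0. By limma 2 had an unadjusted p under 0.05, a threshold at which the share of all genes was not counted. Under DPI 4 of 8 passed, with a background of 11.7% (7.15% higher, 4.56% lower): PIF4, PIF5 and ATHB2 rose and HFR1 fell.

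PAR1 gave the largest value under water, from 13.3, 25.4 and 20.04 in the control systemic leaf to 24.2, 37.7 and 48.6, with overlap, or 0.87 ± 0.329 (adjusted p = 0.0884). It passed by edgeR (0.92, adjusted p = 0.0353) and without water high light systemic replicate 1 (1.13, adjusted p = 0.0399). The corresponding value under DPI, from 58.6, 48.7 and 62.8 to 86.6, 73.2 and 71.2, was 0.44 ± 0.329 (adjusted p = 0.515), and these libraries did not overlap. PIF3 and BEE1 did not pass under water, and their libraries lay lower after high light without overlap. How many of all genes separated in this way was not counted, so separation alone is no sign of a response. PIF3 went from 201.1, 203.0 and 187.7 to 155.2, 173.5 and 162.1, and BEE1 from 42.2, 40.8 and 44.1 to 30.8, 34.5 and 30.4. Under DPI both overlapped, while PIF1 fell without overlap from 656.8, 646.5 and 720.1 to 628.8, 612.2 and 642.6 and did not pass.

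PIF4 was at 3985.9, 4027.3 and 4028.5 in the water control systemic leaf and at 4020.8, 3956.2 and 4103.6 after high light on the other leaf, with overlap and a difference of 0.00 ± 0.032 (adjusted p = 0.965, 2 SE from −0.06 to 0.07). Under DPI it went from 4167.4, 4230.0 and 4342.3 to 4699.2, 4645.1 and 4656.0, without overlap, a rise of 0.14 ± 0.032 (adjusted p = 0.00192). Quantile normalization kept this call (0.10, adjusted p = 0.0308).

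PIF5 under DPI went from 3711.3, 3548.8 and 3649.3 to 4149.0, 4024.1 and 3931.0 in the systemic leaf, without overlap, which is 0.15 ± 0.036 (adjusted p = 0.00252). After quantile normalization the value was 0.10 (adjusted p = 0.0501). Under water it was −0.01 ± 0.036 (adjusted p = 0.892).

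ATHB2 rose from 381.6, 365.8 and 337.4 to 427.8, 454.8 and 448.2 in the systemic leaf under DPI, without overlap, or 0.30 ± 0.079 (adjusted p = 0.00775). Without DPI control systemic replicate 3 this was 0.25 (adjusted p = 0.0727). HFR1 moved the other way, from 1165.6, 1079.2 and 1101.9 to 907.4, 925.9 and 846.7, without overlap, and its fall of −0.32 ± 0.053 (adjusted p = 1.35e-05) passed in every alternative. Under water the systemic values were 0.05 ± 0.079 for ATHB2 (adjusted p = 0.78) and 0.09 ± 0.053 for HFR1 (adjusted p = 0.375).

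The third question was whether local and systemic leaves differed in their response, tested as the systemic response minus the local response. PIF4 and PAR1 passed under both drops, that is 2 of 8 in each, beside 18.8% of all genes under water (8.52% higher, 10.3% lower) and 13.2% under DPI (6.04% higher, 7.13% lower). PAR1 differed by 2.31 ± 0.465 under water (adjusted p = 0.000231), where it fell in the local leaf and its systemic libraries averaged higher after light, and by 1.57 ± 0.465 under DPI (adjusted p = 0.0177). The value under DPI was 1.098 (adjusted p = 0.104) without DPI high light local replicate 1 and 1.47 (adjusted p = 0.0513) without DPI control systemic replicate 2, and missed the threshold without a filter on low values (1.57, adjusted p = 0.0698). ATHB2 did not pass with all libraries. Under water it passed without water control local replicate 2 (−0.36, adjusted p = 0.0203) or water high light local replicate 2 (−0.36, adjusted p = 0.0180).

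For PIF4 the systemic response was smaller, by −0.17 ± 0.045 under water (adjusted p = 0.00397) and −0.13 ± 0.045 under DPI (adjusted p = 0.0432). After quantile normalization these were −0.07 (adjusted p = 0.309) and 0.04 (adjusted p = 0.627), so that the sign under DPI turned. The call under DPI was lost in 9 of 12 fits that left out 1 library (adjusted p up to 0.125). The 537 transcripts at the level of PIF4 and PIF5 had a median interaction of −0.0006 under water and −0.06 under DPI. Without high light, no transcript of the 8 differed between systemic and local leaf by limma, edgeR or DESeq2 under water or DPI. By limma, 2.77% of all genes did under water (1.58% higher, 1.19% lower) and 5.56% under DPI (0.961% higher, 4.6% lower). At an unadjusted p under 0.05 by limma there were 2 of 8 under water and 1 of 8 under DPI. The share of all genes at that unadjusted threshold was not counted.

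The fourth question was what DPI did to leaves that were not stressed. PIF3, PIF5 and BEE1 were lower under DPI than under water in both leaves, ATHB2 was higher in the local leaf, and PIF4 and PAR1 were higher in the systemic leaf. That is 4 of 8 transcripts in the local leaf (40.5% of all genes, 21.5% higher and 19% lower) and 5 of 8 in the systemic leaf (39.5%, 20.7% higher and 18.8% lower), so that calls of this kind were common over the whole table.

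PIF3 was at 211.6, 171.8 and 176.8 under water and at 152.9, 153.1 and 124.5 under DPI in the control local leaf, without overlap. The difference was −0.38 ± 0.119 (adjusted p = 0.00949), which became −0.28 without water control local replicate 1 (adjusted p = 0.0878) or without DPI control local replicate 3 (adjusted p = 0.0914). In the systemic leaf PIF3 was at 201.1, 203.0 and 187.7 under water and 141.1, 118.1 and 141.2 under DPI, without overlap, a difference of −0.56 ± 0.119 (adjusted p = 0.00016) that passed in every alternative.

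BEE1 was at 24.2, 37.6 and 31.0 under water and at 15.9, 15.2 and 15.3 under DPI in the control local leaf. All DPI libraries lay below all water libraries, at −0.93 ± 0.254 (adjusted p = 0.00273), so that the level fell by 47.6%. The systemic values were 42.2, 40.8 and 44.1 under water and 25.8, 29.7 and 22.7 under DPI, also without overlap, at −0.69 ± 0.254 (adjusted p = 0.0284), a call lost in 5 of 6 fits that left out 1 library (adjusted p up to 0.108).

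PIF5 was lower under DPI by −0.22 ± 0.036 in the systemic leaf (adjusted p = 2.73e-06), from 4312.5, 4320.7 and 4086.7 to 3711.3, 3548.8 and 3649.3, without overlap and in every alternative. In the local leaf it was lower by −0.09 ± 0.036 (adjusted p = 0.0411), a call lost in 5 alternatives that kept all libraries (adjusted p up to 0.105) and without DPI control local replicate 3 (−0.05, adjusted p = 0.358), water control local replicate 1 (−0.08, adjusted p = 0.112) or replicate 2 (−0.09, adjusted p = 0.0900). PIF4 was higher by 0.08 ± 0.032 in the systemic leaf (adjusted p = 0.0398), lost in 5 of 6 fits that left out 1 library (adjusted p up to 0.168), and by 0.06 ± 0.032 in the local leaf (adjusted p = 0.139).

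PAR1 showed the largest effect of the drop: 13.3, 25.4 and 20.04 under water and 58.6, 48.7 and 62.8 under DPI in the control systemic leaf, without overlap. The rise of 1.52 ± 0.329 (adjusted p = 0.000218), or 2.88-fold, passed in every alternative that tested it, while the local value was 0.47 ± 0.329 (adjusted p = 0.271). ATHB2 was higher in the local leaf by 0.22 ± 0.079 (adjusted p = 0.0234), with overlapping libraries, a call lost with DESeq2 (0.21, adjusted p = 0.0569), quantile normalization (0.18, adjusted p = 0.0630) and only the groups compared (0.22, adjusted p = 0.0518) and in 4 of 6 fits that left out 1 library, with 0.13 (adjusted p = 0.223) without water control local replicate 1. For PIF1 and HFR1 no effect of DPI passed, though that for HFR1 in the local leaf did without water control local replicate 2 (0.14, adjusted p = 0.0385), with 2 SE from −0.14 to 0.09 and −0.02 to 0.19 in the local leaf and −0.12 to 0.11 and −0.04 to 0.17 in the systemic leaf.

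The fifth question was whether DPI altered the response to light, tested as the difference between the drops, DPI minus water. HFR1 and PIF5 passed in both leaves, 2 of 8 each, beside 19.9% of all genes in the local leaf (8.74% higher, 11.1% lower) and 6.4% in the systemic leaf (2.32% higher, 4.08% lower). HFR1 responded more negatively under DPI by −0.26 ± 0.075 in the local leaf (adjusted p = 0.00872) and −0.41 ± 0.075 in the systemic leaf (adjusted p = 0.000191). Both passed in every alternative, leaving out each library included.

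PIF5 responded more positively under DPI, by 0.15 ± 0.051 in the local leaf (adjusted p = 0.0324) and 0.16 ± 0.051 in the systemic leaf (adjusted p = 0.0434). Leaving out 1 library ended the call in 6 of 12 fits in the local leaf (adjusted p up to 0.159) and in 8 of 12 in the systemic leaf (adjusted p up to 0.137), and quantile normalization left 0.06 (adjusted p = 0.43) in the local leaf. The local call was also lost with edgeR's TMM factors (adjusted p = 0.0504), only the groups compared (adjusted p = 0.0532) and edgeR (adjusted p = 0.0634). The systemic call was lost with no filter (adjusted p = 0.0620) and quantile normalization (adjusted p = 0.0902). After high light PIF5 averaged 4199.6 under water and 4034.7 under DPI in the systemic leaf, and 4117.0 and 4286.7 in the local leaf. For ATHB2 and PIF4, which passed in 3 of 4 light responses each, the difference between drops did not pass: it was 0.24 ± 0.112 (adjusted p = 0.139) and 0.24 ± 0.112 (adjusted p = 0.257) for ATHB2 and 0.09 ± 0.045 (adjusted p = 0.173) and 0.13 ± 0.045 (adjusted p = 0.0753) for PIF4, local leaf first. The value for PIF4 in the systemic leaf passed by DESeq2 (0.13, adjusted p = 0.0436), and that for ATHB2 in the local leaf passed without water control local replicate 1 (0.32, adjusted p = 0.0387).

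**Figure D3:**
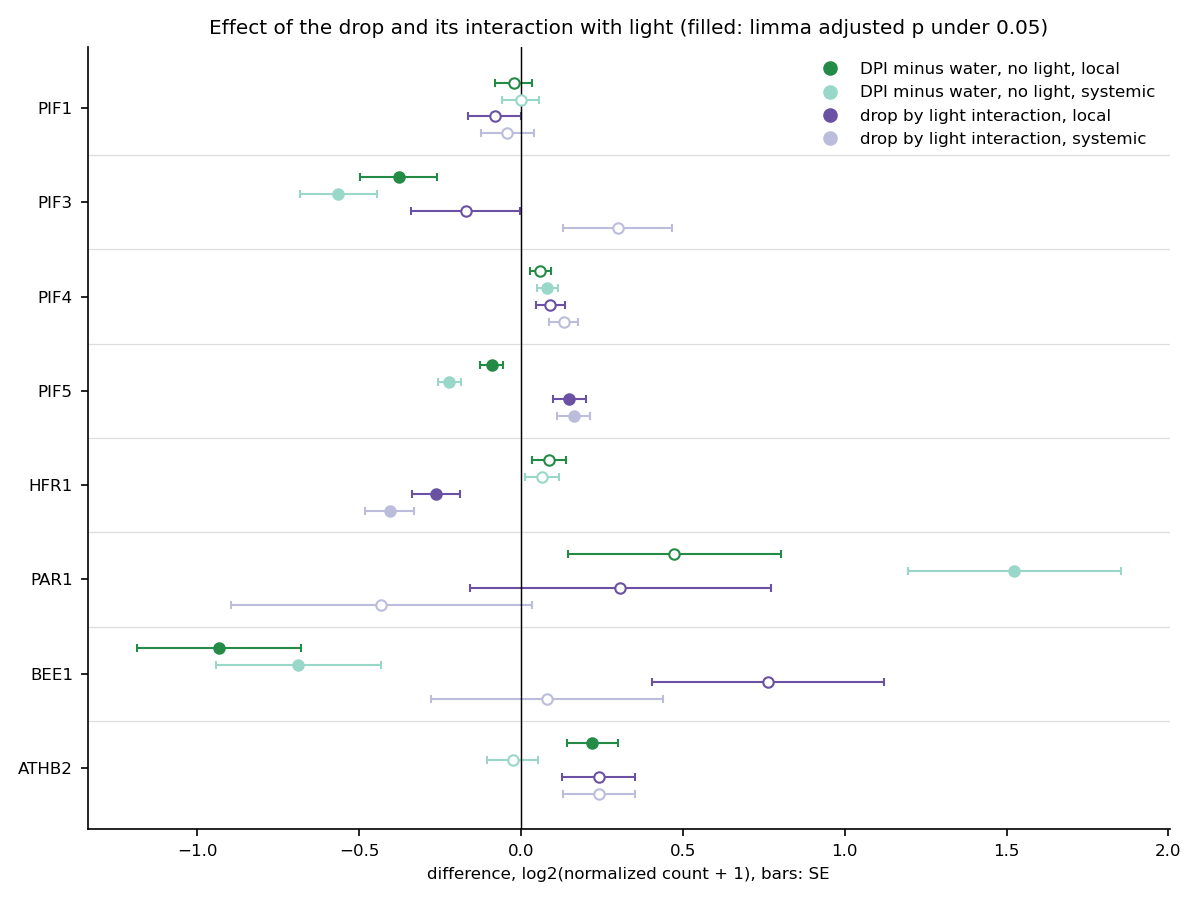
DPI minus water in unstressed leaves and the drop by light interaction for the 8 tested transcripts, as differences of log2(normalized count + 1) on the x axis with SE bars; filled points passed the test. HFR1 has filled interaction points to the left in both leaves (−0.26 and −0.41) and open points for the drop alone.

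The relatives of these transcripts were described from 5 lists by role. The lists were not split by whether a member promotes or restrains elongation. Of 11 other HLH and bHLH factors of elongation, 8 were tested, and in the local leaf 0 rose and 6 fell after high light under water (median −0.41) and 0 rose and 5 fell under DPI (median −0.47), beside medians of 0.00 over all genes, of which 17.9% rose and 14.4% fell under water and 17.9% and 15.9% under DPI. PRE1, an atypical HLH protein that frees bHLH activators, fell from 496.2, 520.3 and 536.9 normalized counts to 202.1, 188.4 and 206.1 under DPI (−1.38, SE 0.072, adjusted p = 3.3e-19). BEE3, a relative of BEE1, showed the largest effect of DPI in the systemic leaf of the list: 266.6, 364.1 and 294.0 under water and 77.5, 67.7 and 51.4 under DPI (−2.22, SE 0.147, adjusted p = 6.74e-16). In the systemic leaf, high light gave 0 higher and 2 lower under water and 0 higher and 3 lower under DPI, beside 3.1% and 4.56% of all genes lower.

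Among the 8 other HD-Zip II factors, relatives of ATHB2, 6 were tested. The local leaf had 0 higher and 5 lower after high light under water (median −0.25), where ATHB2 rose, and 1 higher and 4 lower under DPI (median −0.32), beside 14.4% and 15.9% of all genes lower. HAT1, the exception under DPI, was chosen after its values were seen: its light response was −0.38 under water (adjusted p = 1.49e-07) and 0.45 under DPI (adjusted p = 4.68e-09) in the local leaf, and −0.20 (adjusted p = 0.00926) and 0.27 (adjusted p = 0.000228) in the systemic leaf. Of 5 other PIF relatives 3 were tested, with no call in either leaf under water and 1 lower in each leaf under DPI, beside 15.9% (local) and 4.56% (systemic) of all genes lower. That was PIF8, also chosen after its values were seen, at −0.50 in the local leaf (adjusted p = 2.67e-07) and −0.42 in the systemic leaf (adjusted p = 2.79e-05).

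All 19 photoreceptors and upstream regulators were tested. High light in the local leaf gave 2 higher and 3 lower under water and 3 higher and 2 lower under DPI, beside 17.9% of all genes higher under both and 14.4% and 15.9% lower. DPI without high light gave 2 higher and 8 lower in local leaves, and 4 higher with 8 lower in systemic leaves, beside 19% and 18.8% of all genes lower and 21.5% and 20.7% higher. RGL3, a DELLA repressor of gibberellin signalling, had the largest light response of this list, from 61.1, 53.0 and 67.5 to 197.0, 134.7 and 170.2 normalized counts in systemic leaves of water-treated plants (1.44, SE 0.126, adjusted p = 6.8e-12).

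Of 14 shade and PIF output genes 12 were tested, with 1 higher and 5 lower in the local leaf after high light under water (median −0.37) and 2 higher and 5 lower under DPI (median −0.23), beside 17.9% of all genes higher under both and 14.4% and 15.9% lower. IAA29, an auxin-response repressor and PIF target, went from 109.9, 113.6 and 117.4 to 45.5, 43.1 and 42.4 in the local leaf under DPI (−1.36, SE 0.164, adjusted p = 7.56e-09). YUC2, an enzyme of auxin synthesis, went from 65.7, 58.8 and 52.1 to 17.1, 15.1 and 22.2 (−1.66, SE 0.188, adjusted p = 1.81e-09), and YUC5, of the same enzyme family, moved the other way from 5.7, 3.0 and 5.1 to 28.5, 33.4 and 35.4 (2.60, SE 0.617, adjusted p = 0.000851). The YUC5 control values lie near 3 reads (3.40, 3.04 and 3.06 normalized counts in these libraries), so its change carries a large counting error.

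**Figure D4:**
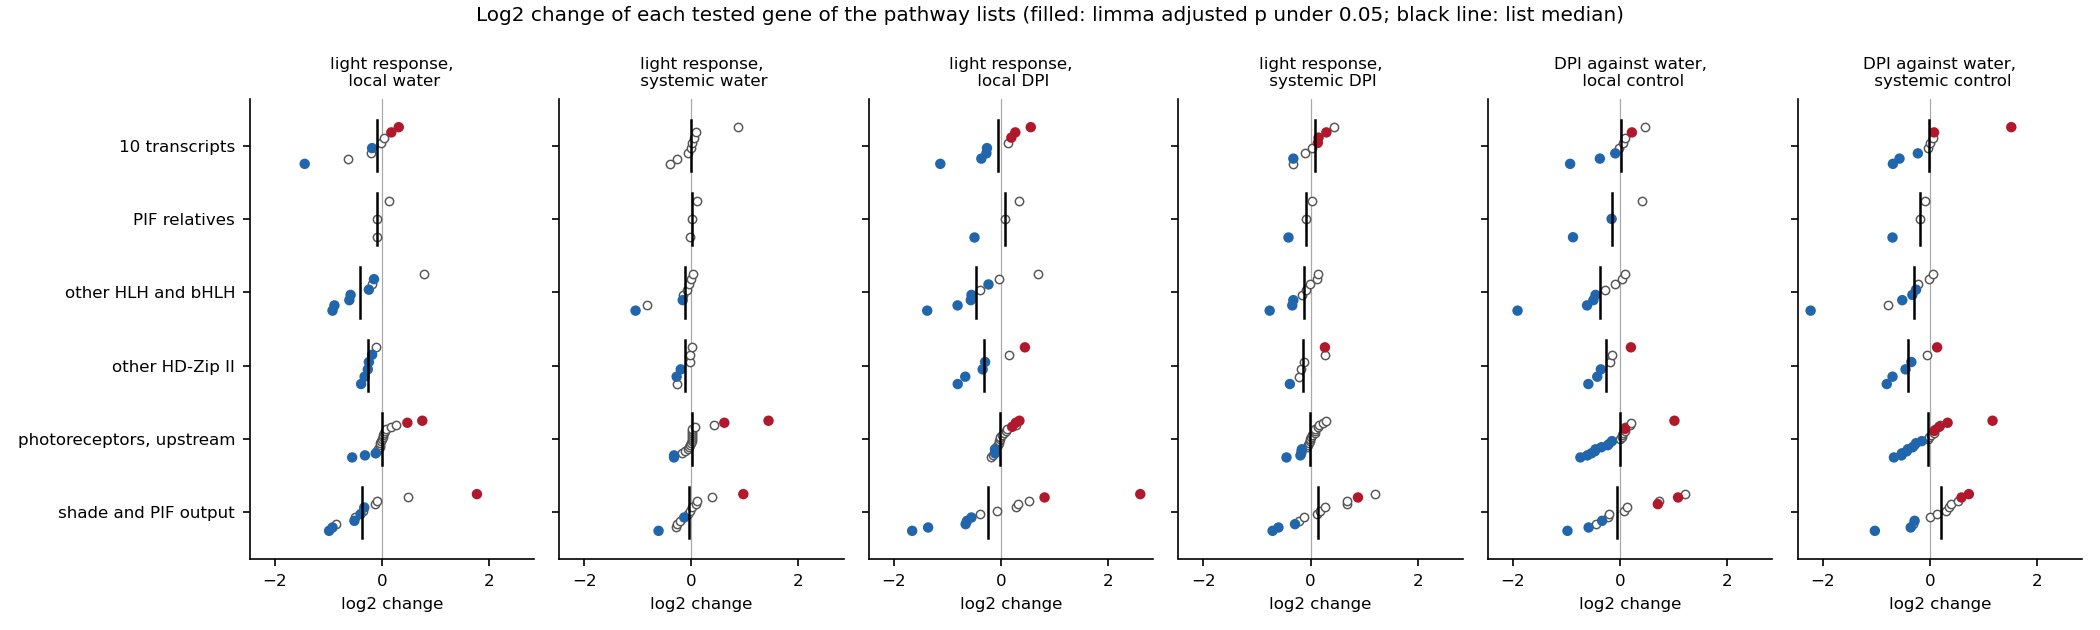
Log2 change of every tested gene (points; filled where the limma adjusted p was under 0.05, red higher and blue lower) and the median (black line) for the 10 transcripts and the 5 lists of relatives, in 6 comparisons. The other HLH and bHLH factors hold no red point in any of them, and YUC5 lies farthest to the right, at 2.60 in the DPI local leaf, from control values near the least level taken as detected.

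Over the 24 libraries, which share the groups and are therefore not independent of the treatments, the levels of PIF4 and ATHB2 were most alike among the 8 (Pearson r = 0.82 of log2 levels), and those of PIF1 and ATHB2 most opposed (r = −0.79). PIF3 and PIF4 also ran opposite to each other (r = −0.74), while PIF4 and PIF5 had r = 0.26. Among all tested genes, the level most like that of PIF4 was AT5G46510 (r = 0.957) and that most like ATHB2 was AT2G18090 (r = 0.946). For PIF1 they were MYBL2 (r = 0.875) and IAA29 (r = 0.875), for PIF3 KCS2 (r = 0.922), for PIF5 RPP1 (r = 0.851), for HFR1 RTFL17 (r = 0.831), for PAR1 AT1G63080 (r = 0.890) and for BEE1 AT3G55420 (r = 0.891).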

How the data were processed

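Transcript levels were measured by single-end RNA sequencing of stranded mRNA libraries. Per the labels and the methods of the study, the authors checked reads with FastQC (0.11.7), aligned them with STAR (2.4.0.1) to TAIR10 and normalized counts per gene with DESeq2 (1.20.0). Mapping could place a read at several locations. The counting tool, its strand setting and how such reads entered the counts per gene are not given in the sources used here, so levels of close relatives are uncertain. The deposited values are therefore a normalized signal: reads divided by the size factor of the library. Dividing each library by its smallest value gave whole reads for 100% of values (tolerance 0.01 reads), including 4 libraries whose factor lies so close to 1 that a general test for such steps cannot tell them from unscaled counts. These reads served only for depth and for the edgeR and DESeq2 alternatives. Under water, edgeR called 3371 genes higher and 2677 lower in the local light response, and 1456 higher and 567 lower in the systemic light response.

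Levels were tested as log2(normalized count + 1) with limma (3.58.1, R 4.3.3) with a trend on mean level: all 24 libraries, 1 mean per group, 16 residual degrees of freedom, 18314 genes, 12 comparisons, two-sided, Benjamini-Hochberg adjusted over all tested genes in each, threshold 0.05. This scale understates changes of low transcripts. Per-kilobase levels used the longest RefSeq transcript. Replicates are pools of plants numbered in the sample titles, so p-values measure the spread between pools. Overlap of libraries is given as a description, and the share of all genes without overlap was not counted. The 10 transcripts, the 5 lists and the markers were chosen with earlier results of these data known. Relatives named are up to 3 per list with the largest changes past the threshold and at least 1 on the log2 scale in a light response or an effect of DPI, and, per transcript, the 2 genes most correlated with it, of which the text gives the first, and for PIF1 both. HAT1 and PIF8 lie outside this rule.

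Alternatives were pseudocounts of 5 and 0.5, no filter, a mean of at least 50, rescaling with edgeR's TMM factors, quantile normalization, only the groups compared, the replicate number as a block, edgeR (4.0.16) quasi-likelihood and DESeq2 (1.42.0) Wald tests on recovered reads, and leaving out each library. Scripts were tested on simulated data. Figures were drawn with matplotlib (3.10.9).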

Additional observations from a re-analysis of the deposited data

Results flagged for a closer look

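The light response differed between the drops for HFR1 and PIF5, by a test of the interaction itself in limma. For HFR1 the response under DPI was lower than under water by −0.26 in the local leaf (adjusted p = 0.00872) and by −0.41 in the systemic leaf (adjusted p = 0.000191). For PIF5 it was higher by 0.15 in the local leaf (adjusted p = 0.0324) and by 0.16 in the systemic leaf (adjusted p = 0.0434). The calls for HFR1 passed in every alternative. Those for PIF5 were lost in several fits that left out a library and after quantile normalization.

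The light response differed between systemic and local leaf for PIF4 and PAR1, again by the interaction. For PIF4 the systemic response was lower by −0.17 under water (adjusted p = 0.00397) and −0.13 under DPI (adjusted p = 0.0432). For PAR1 it was higher by 2.31 under water (adjusted p = 0.000231) and 1.57 under DPI (adjusted p = 0.0177). The PIF4 call under water was lost after quantile normalization. Under DPI the PIF4 call was lost in most fits that left out a library, and the PAR1 call in some. Transcripts at the level of PIF4 had a median of −0.0006 under water and −0.06 under DPI. The control libraries are shared by interactions of the same leaf or drop, so these results are not independent of each other.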

How the results depend on the processing

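Of 96 tested values (8 transcripts in 12 comparisons), 32 passed the threshold, of which 14 passed in the same direction in every alternative that tested them and 18 did not in at least 1. Of the 64 others, 6 passed in the same direction in at least 1, and 1, PIF5 in the local leaf under water, in the opposite direction after quantile normalization. The sign turned for 3, all after quantile normalization: PIF5 to −0.088 (light response, local leaf, water) and −0.025 (same leaf, DPI), and PIF4 to 0.042 (leaf by light interaction, DPI). Counts of calls moved by more than 1.5 times as follows, beside smaller moves such as 4 to 5 (local light response under water, edgeR) and 7 to 5 (under DPI, quantile normalization). The systemic light response under water went from 0 to 1 with the replicate block and edgeR, and ranged from 0 to 1 without 1 library. DPI in the local leaf went from 4 to 2 with quantile normalization or only the groups compared (1 to 4 without 1 library), and in the systemic leaf from 5 to 3 with a mean of at least 50 (3 to 4). The drop by light interaction went from 2 to 1 in the local leaf with TMM, quantile normalization, only the groups compared and edgeR, and in the systemic leaf with no filter and quantile normalization (1 to 2 in both leaves). The leaf by light interaction went from 2 to 1 under water with a mean of at least 50 and quantile normalization (2 to 3), and under DPI with these, no filter, TMM and edgeR (0 to 2). With a mean of at least 50 only 6 of the 8 transcripts were tested. PAR1 and BEE1 fell below that mean, so their calls were not tested there rather than lost. Same-numbered libraries deviated together little: of 84 pairs, 0 had a correlation over 0.1 (−0.04 to 0.09). Such low correlations do not exclude that the numbers pair libraries, and the main test treated local and systemic leaves as independent. Over all genes the replicate block gave more calls. In the systemic light response under water, 1592 genes were higher and 685 lower, against 1403 and 568 without it. Among the 8 transcripts, the count of calls with the replicate block rose only in the systemic light response under water, to 1, and in the systemic drop by light interaction, from 2 to 3 (PIF4, 0.13, adjusted p = 0.0394). Depth limits PIL1 and ATHB4, at 10 reads or fewer, and PAR1 and BEE1.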
